A study of Arabidopsis thaliana with 20 samples.

Results

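The genes described here are the NAC transcription factor genes of Arabidopsis thaliana, named after the founding proteins NAM, ATAF and CUC. They were chosen from the TAIR10.1 RefSeq annotation as nuclear protein-coding genes whose product name contains "NAC domain" or "NAC (No Apical Meristem)", leaving out CUC1 to CUC3, VND6 and VND7. The phrase matched 103 genes, of which CUC1, CUC2 and CUC3 were left out, so that 100 of 27444 nuclear protein-coding genes remained. Chromosome 1 holds 33 of them, chromosome 2 holds 6, chromosome 3 holds 26, chromosome 4 holds 9 and chromosome 5 holds 26. The product name decides membership, so that 9 genes often counted among the NAC genes, including NAP, NTL8, NTL9 and VND1, fall outside it.

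NAC proteins are plant transcription factors that bind DNA as dimers through a conserved domain at their amino-terminal end, with a recognition core of CACG. Members are known as regulators of leaf senescence, of drought and abscisic acid (ABA) responses, of secondary cell wall deposition and of the root cap. Some are made as membrane-anchored precursors and released under stress, and a few are cleaved at the mRNA level by the microRNA miR164.

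The study mapped accessible chromatin by DNase I digestion of nuclei (DNase-seq) in whole 7-day-old seedlings. All groups were Col-0 plants of the INTACT line UBQ10:NTF::ACT2:birA, in which the UBQ10 promoter drives a nuclear envelope tag and the ACT2 promoter a biotin ligase, so that nuclei can be captured with biotin. The dark-grown groups (4) were kept in the dark with 16 h at 22 °C and 8 h at 20 °C: the dark group itself and seedlings then moved to light for 30 min, for 3 h, or for 24 h under the LD regime. The LD-grown groups (3) had long days (16 h of light at 22 °C, 8 h of dark at 20 °C): the LD control, a spray control misted with 0.5% ethanol and left for 3 h, and a heat shock of 30 min at 45 °C. Captured nuclei were exposed to DNase I (45 units) at 25 °C over 3 min. The single-end and paired-end samples of each library had identical peak files, so that the 14 samples gave 7 lists, 1 per condition, and no replicate error could be had for any value below. Read depth is unknown, and no test was made between lists.

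The 7 lists held 26712 to 34637 nuclear peaks of mostly 150 bp. The signal of a peak is the authors' own value, and its median ran from 148 in the dark list to 1036 in the spray control, with 417 and 424 in the LD control and heat shock lists. For that reason a peak is described by its percentile, its rank by signal among all nuclear peaks of its own list (100 is the strongest). Ranks in lists of different length describe each list and do not measure a change between them. The heat shock protein gene HSP101, read as a check of the labels, held 8 peaks over its span in the heat shock list and 1 in each other list. A peak was given to a gene when it touched the zone from 1000 bp upstream to 200 bp downstream of the gene start or the gene span. A peak is called gained when it shares no base with any peak of the reference list, and lost for the reverse. Whole seedlings were used, so that a site open in few cells and a site weakly open in many cannot be told apart.

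The NAC genes carried peaks about as often as other genes. Of the 100 genes, 66 had a peak in the dark list, 70, 72 and 67 in the lists of 30 min, 3 h and 24 h of light, 72 in each of the LD and spray control lists and 75 in the heat shock list. Over all genes the shares were 64.9%, 66.5%, 71.9%, 64.4%, 74.3%, 72.9% and 72.7% in the same order. A peak in all 7 lists was found for 59 NAC genes (57.2% of all genes), a peak in 1 to 6 lists for 21 (23.3%), and none for 20 (19.5%). The zones of NAC genes were of similar size, with a median of 2860 bp against 3080 bp over all genes. The peaks they held ranked above the middle of their lists, with a median percentile between 51.9 (spray control) and 64.3 (24 h of light), where the peaks in the zones of all genes had medians of 49.2 to 50.4.

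Merging overlapping peaks of the 7 lists gave 181 accessible regions in NAC zones, or 184 pairs of a gene and a region. Of these pairs, 105 lay upstream of the gene start, 24 in coding sequence, 18 in the 5′ UTR, 13 in introns, 13 in the 3′ UTR and 11 downstream. The median distance from the gene start was −74 bp, against −23 bp over all genes. Between 0 and 250 bp downstream of the start lay 8.15% of the NAC pairs and 16.2% of all pairs, while 10.9% and 8.19% lay 1000 to 750 bp upstream. The zone of another gene also held 38 of the 184.

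**Figure D1:**
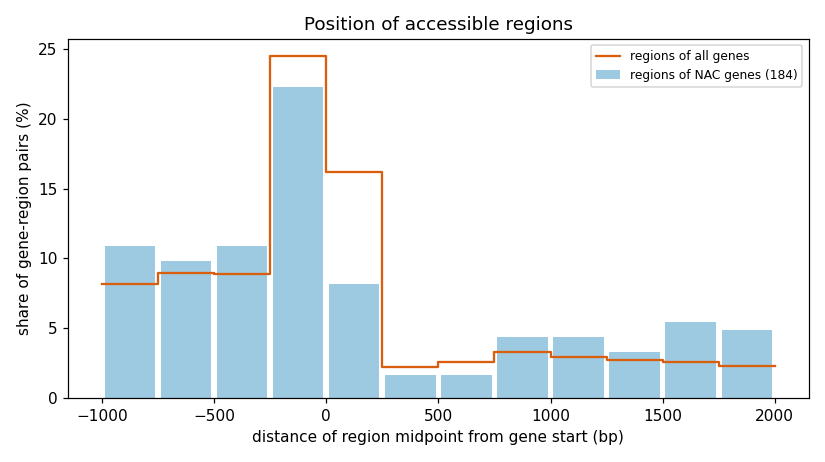
Position of accessible regions relative to the gene start, as the share of gene-region pairs in bins of 250 bp; bars are the 184 pairs of the NAC genes and the line is all 44788 pairs. The bar just downstream of the start stands at 8.15%, below the line at 16.2%.

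The stress and ABA genes were accessible throughout. All 9 listed members had a peak in all 7 lists, with 19 to 24 peaks in the zones per list. RD26 (AT4G27410), a drought- and ABA-induced activator, held 3 peaks in each list, and its region at −65 bp ranked at percentiles 90.9, 92.7, 95 and 94.3 in the dark-grown lists (dark, 30 min, 3 h and 24 h of light, the order used from here on) and at 96.4, 92.1 and 83.5 in the LD control, spray control and heat shock lists. NAC032 (AT1G77450), a member of the ATAF group with roles in stress and senescence, held 4 peaks in every list except the spray control, which held 5; with 29 peaks over the lists it had the most of any NAC gene. A region in its 3′ UTR, 1236 bp from the start, ranked highest in every list except that of 3 h of light, where the region at −84 bp stood at 90.9. The 3′ UTR region was at percentiles 94.7, 90.2, 89.7, 87.7, 97.1, 98.6 and 98.5. The strongest region of NAC102, another ATAF group member, lay at −74 bp and ranked between 97.1 and 99.7 in all 7 lists. NAC019 and NAC055, close relatives of RD26 in drought and jasmonate responses, and NAC047, a regulator of ethylene-driven leaf movement, also kept highly ranked regions in every list: −853 bp for NAC019 (91.6 to 99.4), +38 bp for NAC055 (94.9 to 98.2) and −721 bp for NAC047 (95.4 to 99.5). ATAF1 (AT1G01720), which acts in ABA signalling, had its main region in the 5′ UTR at +202 bp with percentiles of 97.3, 97.0, 97.6, 93.4, 98.9, 99.5 and 94.8.

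These genes differed between lists at weaker sites. ATAF1 held 3 peaks in the LD control but 1 after heat shock: the 3′ region at +1782 bp, at percentiles 67.5 (LD control) and 59.0 (spray control), had no peak after heat shock or 30 min of light, and a peak at −618 bp was found in the LD control alone, at percentile 0.909. NAC019 held 2 peaks in every list except the spray control, which held 4. Both added peaks lay in coding sequence and were weak, at percentiles 19.9 and 2.4. The region of NAC047 at −81 bp, at percentiles 56.1, 59.1, 59.8 and 84.3 in the dark-grown lists, was absent from the LD control and stood at 13.8 (spray control) and 38.0 (heat shock). ATAF2, a wound-responsive member, lacked its region at −397 bp in the 24 h list alone, where the other 6 lists had it at percentiles 55.5 to 83.6. NAC096, which acts with ABA signalling factors, held 2 peaks in 5 lists and 1 after 3 h and 24 h of light.

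The senescence genes also had a peak in all lists, 7 of 7, with 12 peaks in the LD control and 14 to 17 in the other lists. ORE1 (AT5G39610) is a master activator of age-dependent leaf senescence. Its zone held 5 peaks in the dark list and 4, 3 and 3 with 30 min, 3 h and 24 h of light, against 2 each in the LD and spray controls and 3 with heat shock. The region at −264 bp was present in all 7 lists, at percentiles 95.3, 94.3, 87.9 and 97.6 in the dark-grown lists and 72.4, 42.0 and 66.3 in the LD-grown ones. The region at −804 bp stood at 83.1, 78.8, 63.3 and 93.8, then at 62.7, absent and 65.5. The 5′ UTR region at +136 bp was found in the dark (45.3) and 30 min (55.9) lists alone. The third upstream region, around −1084 bp, lies across the edge of the zone: it stood at 57.0, 51.4 and 39.1 in the first 3 lists, was absent after 24 h and from the LD control, and stood at 34.6 (spray control) and 42.2 (heat shock). Only its dark and heat shock peaks touched the zone. The lower count after 30 min of light is therefore an edge effect, which also lowers the counts of the 3 h and spray control lists.

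The dark peak of ORE1 that no 24 h or LD control peak overlaps, with the nearest peak of either list 90 bp away, is a 150-base peak at chr5:15860881-15861030 (TAIR10, minus strand). It is printed on the strand of the gene as the strongest ORE1 peak called lost after 24 h of light. The capitals mark a G-box (CACGTG), the site bound by light- and ABA-related factors, which starts at base 6. The second line is the LD control peak at chr5:15860641-15860790 that no spray control peak overlaps; the nearest lies 130 bp away.
ORE1 dark: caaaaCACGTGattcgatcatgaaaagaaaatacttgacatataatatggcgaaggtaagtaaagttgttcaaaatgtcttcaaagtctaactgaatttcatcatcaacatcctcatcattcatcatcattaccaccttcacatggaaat
ORE1 LD control: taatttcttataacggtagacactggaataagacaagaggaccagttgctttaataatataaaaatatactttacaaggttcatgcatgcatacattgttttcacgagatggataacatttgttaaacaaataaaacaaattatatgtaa
A G-box was found in 11.0% of the NAC regions and in 8.22% of the regions in zones of all genes, counting the 150 bases around each midpoint on both strands.

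JUB1 (AT2G43000), a repressor of senescence, held 1 upstream peak in every dark-grown list and in the LD control, and 3 and 2 peaks in the spray control and heat shock lists. The upstream peak sat at −649 bp in 6 lists, with percentiles of 80.7, 82.6, 85.7, 65.4, 47.1 and 69.2, while after 3 h of light the peak sat at −839 bp (66.0), with 10 bases between it and the dark peak. That pair therefore counts as 1 lost and 1 gained peak although the peaks adjoin. The dark peak at chr2:17883241-17883390 (minus strand) has a G-box at base 14, and the 3 h peak at chr2:17883401-17883550 has none of the motifs searched.
JUB1 dark: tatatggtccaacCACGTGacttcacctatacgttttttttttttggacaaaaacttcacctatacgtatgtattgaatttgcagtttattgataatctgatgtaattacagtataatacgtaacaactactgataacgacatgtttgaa
JUB1 3 h of light: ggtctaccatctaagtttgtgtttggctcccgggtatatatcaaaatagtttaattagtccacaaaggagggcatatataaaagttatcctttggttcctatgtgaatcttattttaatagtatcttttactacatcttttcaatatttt
The additional JUB1 peaks lay in coding sequence, at +1721 bp (16.3, spray control) and +761 bp (10.8 with spray, 3.9 with heat shock).

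VNI2 (AT5G13180), which delays leaf senescence and represses xylem vessel formation, held 2, 3, 3 and 3 peaks in the dark-grown lists, 2 and 3 in the LD and spray controls and 5 after heat shock. Of the heat shock peaks, those at −821 bp (44.0), +39 bp (53.4) and +979 bp (12.3) had no counterpart in the LD control. The LD control peak at +279 bp (72.0) had none after heat shock and lay 90 bp from the +39 bp peak. The other difference in number is an edge effect, since the LD control peak of the downstream region (59.4) lies just outside the zone. ORS1 (AT3G29035), an activator of senescence related to ORE1, gained a peak at −210 bp after 24 h of light at percentile 92.0, the highest rank of any peak gained in a NAC zone in the 6 comparisons. It lay 110 bp from the nearest dark peak, and the region also held peaks in the spray control (0.0118) and heat shock (44.7) lists. It is printed on the plus strand, at chr3:11033381-11033530, and holds none of the motifs searched.
ORS1 24 h of light: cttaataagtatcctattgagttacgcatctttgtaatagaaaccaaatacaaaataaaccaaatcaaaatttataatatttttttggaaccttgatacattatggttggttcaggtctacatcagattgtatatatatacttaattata
NAC046, which promotes chlorophyll breakdown, had a region at −579 bp in the dark (39.8), 3 h (41.5) and 24 h (44.8) lists and in no LD-grown list. NAC016, a promoter of leaf yellowing, held 2 or 3 peaks in each list.

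**Figure D2:**
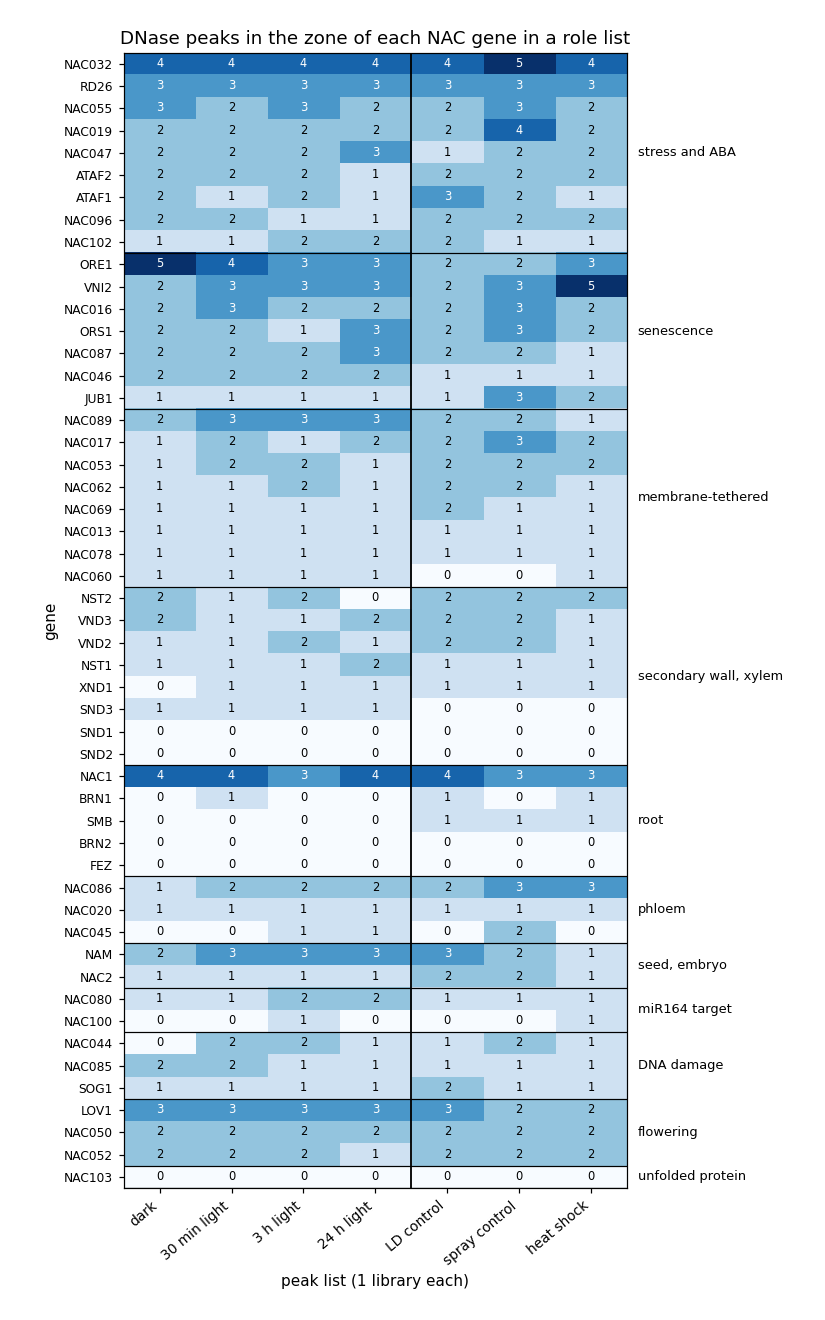
Number of DNase peaks in the zone of each of the 51 NAC genes in a role list (rows, grouped by role) in each of the 7 lists (columns, dark-grown left of the line, LD-grown right). NAC032 holds 4 or 5 peaks throughout, ORE1 runs from 5 in the dark to 2 in the LD control, VNI2 reaches 5 after heat shock, and SND1, SND2, FEZ, BRN2 and NAC103 are at 0 throughout.

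Among 8 membrane-tethered members, 7 had a peak in all 7 lists. NAC013 and NAC017, which relay mitochondrial signals to the nucleus, kept start-proximal regions in every list: −96 bp for NAC013 at percentiles 48.0 to 82.8, and −50 bp for NAC017 at 43.4 to 66.8. The latter region also lies in the zone of NAC016, its tandem neighbour. NAC078 and NAC053, regulators of the response to proteasome stress, differed. NAC078 had 1 region, at −49 bp, in all lists, at percentiles 61.1, 58.4, 83.3, 65.1, 69.9, 80.5 and 87.1. NAC053 had a peak at −142 bp in every list except the 24 h list (57.0 to 76.3) and a peak near +118 bp in every list except the dark list (63.8 to 73.5), so that only 1 of them was present in each of those 2 lists. The −142 bp region also lies over the 3′ UTR of the neighbouring gene NAC052. NAC062 and NAC089, released from membranes under protein-folding stress, had a strong region at −136 bp (87.4 to 96.3) and at +41 bp (69.5 to 89.1), respectively. NAC089 had a further region at −839 bp at percentiles 63.9, 66.5, 55.8 and 71.1 in the dark-grown lists and in none of the LD-grown lists. NAC060, which dampens sugar and ABA signalling, had its 1 region at −45 bp in the dark-grown lists (48.6, 37.4, 39.8 and 30.6) and after heat shock (16.5), but not in the LD or spray control.

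The dark NAC089 peak at chr5:7378541-7378690 (minus strand) holds a W-box (TTGACC or TTGACT, the site of WRKY factors) at base 94. The part of the dark NAC060 peak upstream of the gene start, chr3:15975251-15975370 (minus strand), is shown because that peak is the gene's single region, and it was chosen after its values were seen.
NAC089 dark: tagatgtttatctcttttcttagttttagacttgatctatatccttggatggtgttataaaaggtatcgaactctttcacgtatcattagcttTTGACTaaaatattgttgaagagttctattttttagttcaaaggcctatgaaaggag
NAC060 dark: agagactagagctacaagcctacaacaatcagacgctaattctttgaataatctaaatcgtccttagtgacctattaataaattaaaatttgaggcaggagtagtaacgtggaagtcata
W-boxes were found in 21.5% of NAC regions and 23.4% of the regions of all genes.

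The secondary wall and xylem genes were less uniform: 3 of 8 had a peak in all lists and 2, SND1 and SND2, had none. SND1 is a master switch of fibre wall thickening and SND2 acts downstream of it. SND3 (AT1G28470), also downstream, had 1 peak at −49 bp in each dark-grown list, at percentiles 19.1, 37.8, 35.6 and 41.5, and none in the 3 LD-grown lists. NST2 (AT3G61910), a switch of anther wall thickening related to SND1, showed the opposite order. Its coding region at +1001 bp stood at percentiles 8.01, 4.67 and 19.0 in the dark, 30 min and 3 h lists, was absent after 24 h, and stood at 87.9, 90.8 and 71.3 in the LD control, spray control and heat shock lists. Its upstream region at −819 bp was at 13.7 in the dark and 16.8 after 3 h, absent after 30 min and 24 h, and at 53.4, 61.2 and 50.4 in the LD-grown lists. XND1, a repressor of xylem formation, had 1 region at −1082 bp in all lists (44.3 to 93.8). It lies across the edge of the zone, and only its spray control and heat shock peaks touched the zone. Further XND1 peaks lay at −502 bp in the 30 min (11.5), 3 h (36.9) and LD control (4.3) lists, and at −282 bp after 24 h (22.8). NST1 had a region at −759 bp in all lists (27.8 to 66.1), and a weak peak at −79 bp after 24 h alone (6.02). VND2, a vessel regulator, had a start-proximal region at −74 bp in every list except the dark one, at percentiles 6.92, 31.1, 17.2, 15.1, 24.0 and 23.7. For VND3, the region at −947 bp ranked at 58.2 to 95.1 in all lists.

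The upstream part of the dark SND3 peak, chr1:10010001-10010123 on the plus strand, was likewise chosen after its values were seen. It holds the NAC core CACG, which is not marked, and none of the other motifs searched.
SND3 dark: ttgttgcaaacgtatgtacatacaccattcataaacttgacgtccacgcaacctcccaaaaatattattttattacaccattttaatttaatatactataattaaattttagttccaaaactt

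Root genes held few peaks apart from NAC1 (AT1G56010), which transmits auxin signals in lateral root formation. NAC1 held 4, 4, 3 and 4 peaks in the dark-grown lists and 4, 3 and 3 in the LD control, spray control and heat shock lists. Its region at −674 bp was present in all of them at percentiles 48.5 to 77.1. SMB, which drives root cap maturation, had 1 intron peak at +1398 bp in the 3 LD-grown lists (8.66, 11.8 and 8.46) and none in the dark-grown lists. BRN1 had 1 weak peak downstream of the gene in the 30 min, LD control and heat shock lists, and those of the 3 h and spray control lists lay just outside the zone. FEZ, which promotes root cap stem cell division, and BRN2 had none in any list.

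Of the phloem regulators, NAC045 had no peak in the dark, 30 min, LD control and heat shock lists, 1 after 3 h and after 24 h, and 2 in the spray control, with the region at −366 bp at percentiles 27.6, 8.22 and 25.1. Its partner NAC086, which acts with it in sieve element enucleation, had 1, 2, 2, 2, 2, 3 and 3. The NAC086 regions at +3060 bp and −980 bp were present in all 7 lists. At +3060 bp the dark (45.3) and LD control (75.6) peaks lay just outside the zone. The lower count in the dark than after light is therefore an edge effect, which also lowers the LD control count. NAC086 has an upstream region at −320 bp in the 3 LD-grown lists (18.2, 18.2 and 10.9) and in no dark-grown list. NAC044, a mediator of cell-cycle arrest after DNA damage, had no peak in its zone in the dark list, 2 after 30 min and 3 h, 1 after 24 h, and 1, 2 and 1 in the LD-grown lists. Its start region was absent in the dark and stood at percentiles 3.13, 24.2 and 8.98 after 30 min, 3 h and 24 h of light, and at 51.5, 67.0 and 38.8 in the LD-grown lists. A downstream NAC044 region at +2500 bp was present in every list except heat shock. The dark, 24 h and LD control peaks of that region (13.7, 4.59 and 14.6) lay just outside the zone. Part of the rise in number from the dark to 30 min and 3 h is therefore an edge effect. NAC085, which acts with NAC044, had a start-proximal region at −157 bp at percentiles 90.0 to 99.5 in all lists, and SOG1, the regulator upstream of both, one at −18 bp at 80.0 to 89.9. The flowering-time members LOV1, NAC050 and NAC052 had peaks in all lists. NAM (AT1G52880) and NAC2 (AT3G15510), which act in the seed coat, did too; the number for NAM was 3 in the LD control list against 1 in the heat shock list. The unfolded protein response gene NAC103 had none.

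NAC074 (AT4G28530), a regulator of cell death in the stigma that belongs to none of the role lists, was split by growth condition. It held 3 peaks in each of the 4 dark-grown lists and none in the LD control, spray control or heat shock list. The region at the gene start (−33 bp) stood at percentiles 65.4, 70.6, 55.8 and 77.1, with signals of 200, 280, 213 and 258. That at −1013 bp stood at 23.9, 19.4, 8.74 and 19.5, and the intron region at +1607 bp at 20.9, 20.2, 7.8 and 36.4. The gene lies at chr4:14090489-14094902 on the minus strand (TAIR10), and no other gene's zone holds these regions. The dark peaks are printed on the gene's strand, the first without its bases inside the gene, at chr4:14094903-14095010, chr4:14095841-14095990 and chr4:14093221-14093370; they were chosen after their values were seen.
NAC074 start: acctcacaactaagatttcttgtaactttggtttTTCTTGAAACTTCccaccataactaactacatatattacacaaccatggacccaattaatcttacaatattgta
NAC074 upstream: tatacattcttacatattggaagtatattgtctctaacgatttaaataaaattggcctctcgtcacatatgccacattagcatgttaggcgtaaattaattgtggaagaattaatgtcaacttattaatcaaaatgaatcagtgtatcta
NAC074 intron: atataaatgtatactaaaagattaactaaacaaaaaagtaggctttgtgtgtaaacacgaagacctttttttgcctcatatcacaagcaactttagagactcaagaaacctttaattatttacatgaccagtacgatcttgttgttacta
The capitals in the first mark a heat shock element of 3 units (TTC, GAA and TTC, or GAA, TTC and GAA, spaced by 2 bases) from base 35. This arrangement was found in 3 NAC regions, of NAC074, LOV1 and NAC078, or 1.66%, against 0.275% of the regions of all genes. The heat shock list had no peak at NAC074. The NAC core CACG was found in 53.0% of NAC regions and 45.5% of all regions, and CGT and ACG spaced by 6 or 7 bases in 2.21% and 3.6%.

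In all, 6 of the 181 regions, or 3.31%, were present in all 4 dark-grown and no LD-grown list: 3 of NAC074 and 1 each of SND3, NAC084 (+41 bp, percentiles 64.9 to 73.6) and NAC089. Over all genes the share was 1.09%. With 3 of the 6 in 1 gene, they come from 4 genes, and the regions of NAC084 and NAC089 also lie in the zone of another gene. The reverse pattern was found in 5 regions, or 2.76% against 3.21%: 2 of NAC049 and 1 each of SMB, NAC025 and NAC086. NAC049 (AT3G04430) is the mirror image of NAC074 in presence, with 2 upstream peaks in each LD-grown list (at −329 bp, percentiles 27.0, 16.8 and 28.3, and at −1069 bp, 21.7, 8.37 and 18.2) and none in the dark-grown ones. Its region at −1069 bp also lies in the zone of another gene. The growth conditions also differ in median signal, 148 to 192 in the dark-grown lists and 417 to 1036 in the LD-grown ones; the part of this difference in the split was not tested.

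**Figure D3:**
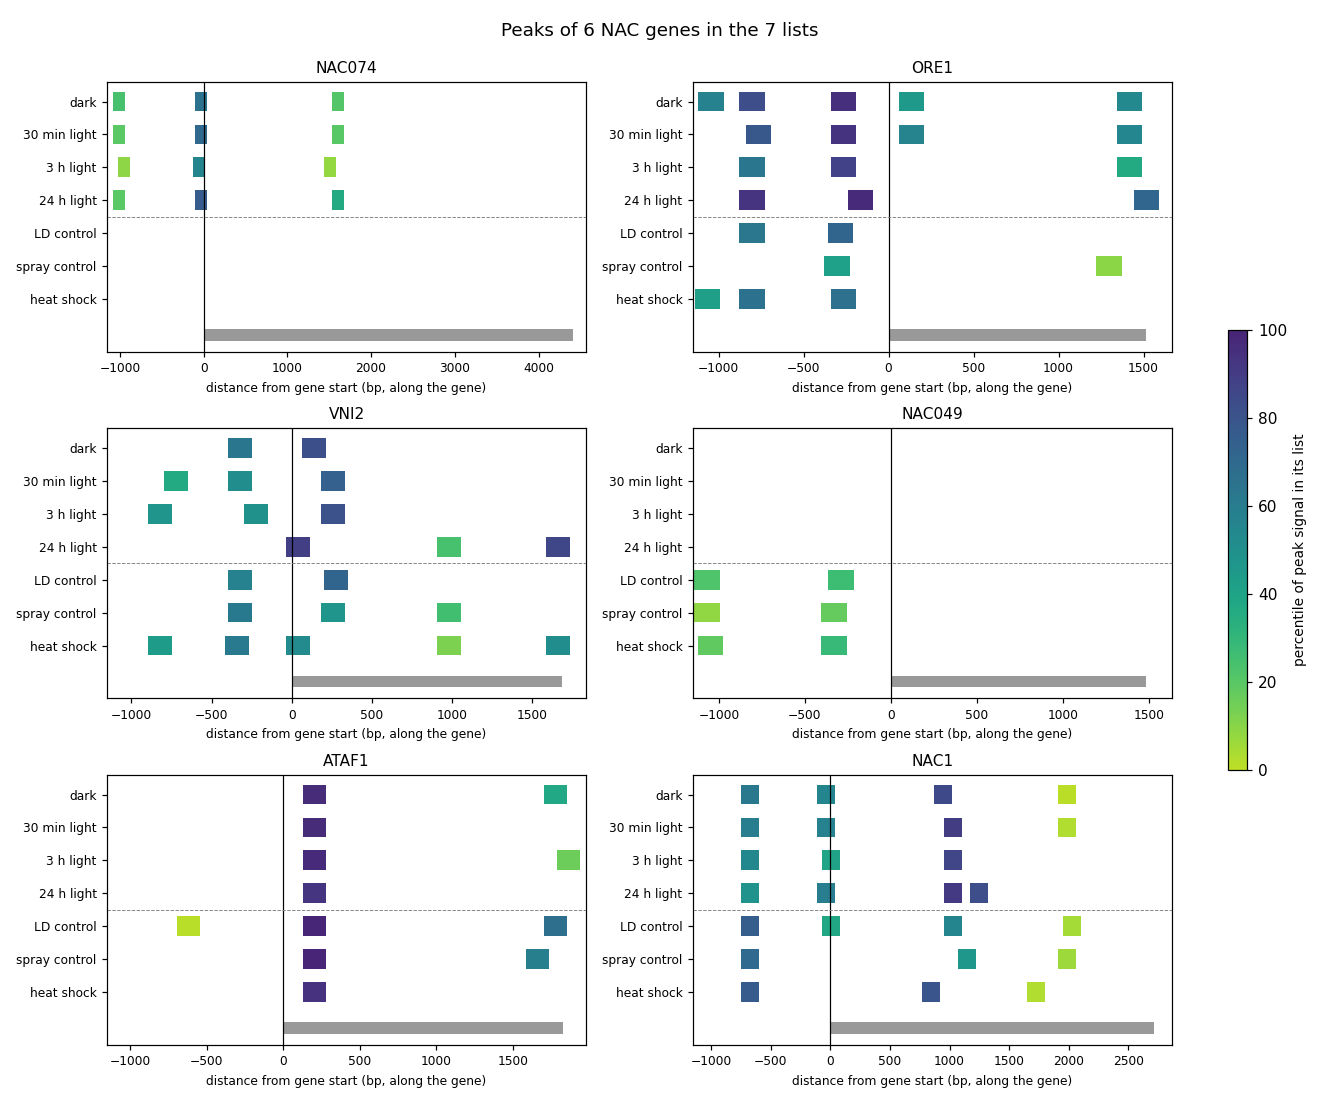
Peaks of NAC074, ORE1, VNI2, NAC049, ATAF1 and NAC1 by distance from the gene start (x axis, bp along the gene) in the 7 lists (rows, dark-grown above the dashed line); color gives the percentile of the peak's signal in its list and the grey bar the gene. NAC074 has 3 peaks in each dark-grown list and none below the line, and NAC049 the reverse with 2.

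Set list against list, growth in the dark rather than under LD went with a gained peak in 15 NAC genes (10.4% of all genes) and with a lost peak in 28 (29.5%). Of the 20 peaks gained in the dark, 8 were in the upper 50% of the dark list, and the 20 included 3 peaks each of NAC074 and ORE1. As deposited, the interval for the 15 genes (9.31 to 23.3%) contained the share over all genes. It lay above that share in the promoter window alone (14 genes, 8.53 to 22.1% against 7.97%), in lists of equal length (20 genes, 13.3 to 28.9% against 12.5%) and among peaks in the upper 50% (7 genes, 3.43 to 13.7% against 2.7%). In the lists as deposited, WRKY genes (26.4% of 72) and homeobox genes (18.3% of 82) had larger shares with a gained peak than the NAC genes. The strongest gained peaks were at NAC2 (−557 bp, percentile 69.8), NAC084 (+41 bp, 69.6), NAC041 (+157 bp, 67.0) and NAC074 (−33 bp, 65.4). The NAC2 peak lies 30 bp from a peak of the LD control, while the nearest LD control peaks of NAC041 and NAC074 were 350 and 2250 bp away. Of the 32 lost peaks, 4 were in the upper 50% of the LD list: NAC053 (+158 bp, 66.9), AT3G12977 (−909 bp, 56.6), NAC2 (−737 bp, 56.0) and NAC044 (+40 bp, 51.5).

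Light for 30 min went with a gained peak in 15 NAC genes (9.53% of all genes) and a lost one in 8 (8.27%). After 3 h the numbers were 20 (17.6%) and 11 (8.88%). After 24 h they were 23 (9.94%) and 19 (14.6%). For the 23 genes the Wilson 95% interval, 15.8 to 32.2%, lay above the share over all genes, and each of the other 11 intervals contained its share; these intervals cover counting error only and take genes as independent. In the promoter window alone 12 NAC genes had such a peak (interval 7.0 to 19.8% against 7.45%), and among peaks in the upper 50% there were 3 (1.03 to 8.45% against 1.42%), so that both intervals contained the share over all genes. WRKY genes (15.3% of 72) and homeobox genes (14.6% of 82) had shares between those of the NAC genes and of all genes. The 24 peaks behind it were mostly weak, with a median percentile of 10.1 and 3 in the upper 50% (ORS1 at 92.0, NAC1 at 83.0 and NAC053 at 71.5), and each of these 3 lay within 150 bp of a dark peak. The LD control list, which took no part in the comparison, held an overlapping peak for 10 of the 24 (41.7%), against 49.3% of the 2363 peaks gained in the zones of all genes. These 3 comparisons share the dark list, so that each is given with its own values.

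**Figure D4:**
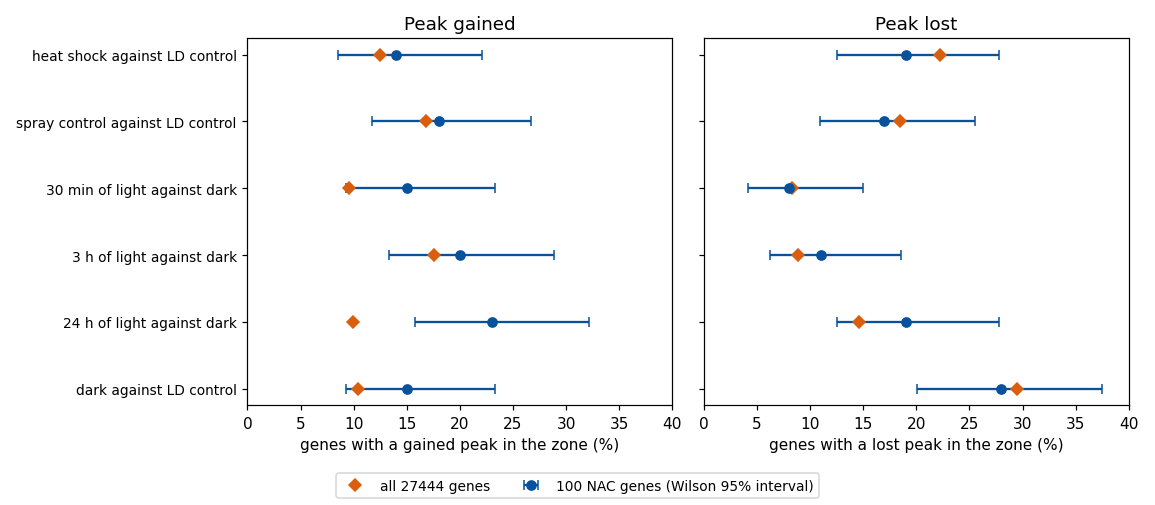
Share of genes with a gained (left) or lost (right) peak in the zone for the 6 comparisons, for the 100 NAC genes (circles, with Wilson 95% intervals for counting error) and all 27444 genes (diamonds). At 24 h of light against dark, 23% of NAC genes stand apart from the diamond at 9.94%; each of the other 11 intervals contains its diamond.

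Several members had sites found after light but not in the dark. NAC028 had no peak in the dark and an intron peak at +945 bp after 30 min, 3 h and 24 h of light, at percentiles 1.73, 7.8 and 6.76, and again after heat shock (21.4). Peaks lost in the light were found at NAC041 (4 peaks in the dark and 2 after 24 h) and NST2 (2 and 0). AT3G12977 held 4 peaks in the dark and 2 after 24 h, and its 5′ UTR region at +191 bp stood at 23.9, 34.4 and 11.5 in the first 3 lists and was absent from the other 4. NAC085 had a peak at −897 bp in the dark (36.7) and 30 min (37.4) lists alone.

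Heat shock went with a gained peak in 14 NAC genes (12.5% of all genes) and a lost peak in 19 (22.2%). Gained peaks in the upper 50% of the list were those of NAC1 (+846 bp, 79.4), VNI2 (+39 bp, 53.4) and NAC011 (−816 bp, 50.5). Both NAC1 and VNI2 had an LD control peak no more than 150 bp away. NAC100, a target of miR164, and NAC060 had a peak in the heat shock list (17.8 and 16.5) and none in the LD control. The strongest lost peaks were those of VNI2 (+279 bp, 72.0), ATAF1 (+1782 bp, 67.5), NAC2 (−737 bp, 56.0) and NAC1 (+1026 bp, 55.8). Those of VNI2, NAC2 and NAC1 lay 90, 150 and 30 bp from a heat shock peak, and that of ATAF1 930 bp. The ATAF1 region also lies in the zones of 2 other genes. Besides ATAF1, NAC001 and NAM each held 1 peak after heat shock against 3 in the LD control. The NAC011 peak at chr1:11755801-11755950 (plus strand) lies 450 bp from the nearest LD control peak and holds W-boxes at bases 91 and 130.
NAC011 heat shock: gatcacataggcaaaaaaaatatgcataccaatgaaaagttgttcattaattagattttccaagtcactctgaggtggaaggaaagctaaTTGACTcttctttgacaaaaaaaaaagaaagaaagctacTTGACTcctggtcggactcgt
The same region had peaks in the dark (11.0), 30 min (15.2), 3 h (38.7) and spray control (26.0) lists.

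The spray control, which shares the LD control list with the heat shock comparison, had a gained peak in 18 NAC genes (16.8% of all genes) and a lost peak in 17 (18.5%). Only 1 of the 21 gained peaks was in the upper 50% of the list, the NAC032 intron peak at +796 bp (62.7), and the lost peak of highest rank was that of ORE1 at −804 bp (62.7 in the LD control). Gains of 2 peaks were found at NAC019, JUB1 and NAC045. Between the LD and spray controls, neither of them heated, the 18 and 17 genes stand beside 14 and 19 for heat shock.

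No peak was found in any list for 20 genes. They include SND1, SND2, FEZ, BRN2 and NAC103 with known roles, and NAC023, NAC024, NAC063 to NAC065, NAC077, NAC093 to NAC095, NAC097, AT1G19040, AT1G60300, AT3G04410, AT3G46390 and AT3G56520. Reads from repeated sequence can be lost or shared. Of the 36-base words in the zones of these 20 genes a median of 0.7435% occur more than once in the genome, and 5 of the 20 exceed 10%; for the 80 genes with a peak the median was 0% and 3 exceed 10%. FEZ has no repeated word. Neighbouring members with no other protein-coding gene between them form 11 groups with 26 genes, and neighbours could differ. In the group of AT3G04410, NAC048 and NAC049, the first had no peak, NAC048 had 1 in all lists but the 24 h and heat shock ones, and NAC049 had its 2 in the LD-grown lists. The NAC048 peak lay at −452 bp in the dark, LD control and spray control lists. After 30 min and 3 h of light it lay in a separate region at −122 bp. NAC077 had none, while NAC078 beside it had 1 in all lists.

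miR164 pairs with the mRNA of a few NAC genes, and its best matches, here called sites, are shown for members of different peak behaviour. Whether each match is a working site was not tested. The mature miR164a is read from the TAIR10.1 genome at chr2:19520770-19520790 (plus strand), in DNA letters with its seed (bases 2 to 8) in capitals; miR164b-5p has the same letters. In the sites the capitals mark letters that pair with miR164a.
miR164a: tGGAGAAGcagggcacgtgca
NAC1 site: aGCACGTaCCCTGCTTCTCCA
NAC080 site: TttACGTGCCCTGCTTCTCCA
NAC100 site: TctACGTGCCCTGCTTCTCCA
AT3G12977 site: aGCAtGTaCCCTGCTTCTCCA
ORE1 site: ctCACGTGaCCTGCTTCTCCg
ORS1 site: ctCACGTtaCCTaCTTCTCCg
Only coding sequence was searched, so that all 6 lie in it and matches in UTRs would not be seen. The best match had 2 mismatches in NAC1, NAC080 and NAC100, 3 in AT3G12977, 4 in ORE1 and 6 in ORS1, and 7 or more in the other 94 members. The peaks counted in the zones of these genes had no common pattern. ORE1 and AT3G12977 held most in the dark (5 and 4), and ORS1 in the 24 h and spray control lists (3 each). NAC080 held most after 3 h and 24 h of light (2 each, 1 elsewhere). NAC100 held 1 after 3 h of light and after heat shock and none elsewhere.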

How the data were processed

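DNase-seq peak lists of 14 samples (7 libraries, each with identical files for its single-end and paired-end samples) were used; the 6 RNA-seq samples were not analysed here. Reads were handled with CASAVA 1.8.2 and Bowtie 0.12.7 on TAIR10, per the submitters' processing notes. The peak caller is not given in the sources used here, nor is its threshold, and the notes on the series mention read-subsampled samples without marking which. The deposited files hold a signal value per peak, never negative, and a −log10 p column, deposited by the authors, which ends at 324 and was not used for ranking. The 474 organelle peaks of the spray control were left out. Gene models came from the RefSeq TAIR10.1 annotation: 59.8% of the dark peaks had their midpoint in a promoter window of a gene, and 27.8% after shifting the peaks by 5000 bp.

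Peaks overlapping a zone by 1 bp were counted, and a peak was called gained or lost when it overlapped no peak of the other list. Wilson 95% intervals are given for shares and express counting error alone. With 1 library per condition no test was run. The overlap and assignment steps were tested on simulated data. Python 3.11.15, pandas 2.3.3, numpy 2.4.6, scipy 1.17.1 and matplotlib 3.10.9 were used.

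The members, role lists and partner genes were chosen with earlier results of these data known. Genes named are role-list members with most peaks or with none, those whose gained or lost peaks ranked highest, those whose number of peaks differed by 2 or more in a comparison, and tandem neighbours. Members named for a region shared by the lists of one growth condition, the printed NAC074, SND3 and NAC060 sequences, and NAC028 were chosen after their values were seen. Alternatives were a 75 bp overlap, the promoter window alone, a window of 500 bp upstream to 100 bp downstream with the span, the upper 50% of peaks by signal, and lists reduced to the 26712 strongest peaks.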

Additional observations from a re-analysis of the deposited data

How the results depend on the processing

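Of 68 alternative values, 39 stayed within 1.5 times the reported count. The narrower window of 500 bp upstream to 100 bp downstream moved none of the 14 counts beyond that. An overlap of 75 bp moved 1, the members with a lost peak after 3 h of light, from 11 to 17. The share over all genes at the same setting stands in brackets after each count. Within the promoter window alone, gained peaks were found in 9 members for heat shock (8.7%) and 9 for the spray control (9.77%). For 30 min, 3 h and 24 h of light they were found in 9 (6.8%), 13 (13.6%) and 12 (7.45%). Lost peaks were found in 7 for heat shock (13.2%) and 6 for the spray control (11.0%). They were found in 4 for 30 min (5.9%), 6 for 3 h of light (6.34%) and 15 for dark against LD (18.8%). With only the upper 50% of peaks, gained peaks were found in 3 members for heat shock (2.28%) and 1 for the spray control (2.26%). They were found in 1 for 30 min (0.845%), 2 for 3 h (1.72%) and 3 for 24 h of light (1.42%), and 7 for dark against LD (2.7%). Lost peaks were then found in 4 (3.72%), 1 (2.1%), 0 (0.922%), 2 (1.73%), 5 (2.34%) and 4 (4.89%) members in the same order. A peak in all 7 lists was then found for 31 members and no peak for 36. The shares over all genes were not taken for these counts, so they cannot be set against other genes. In lists of equal length, lost peaks were found in 10 members for heat shock (14.3%), 10 for the spray control (10.3%) and 11 for dark against LD (15.5%). Gained peaks were found there in 8 for 30 min of light (8.21%). Of the counts called above the share over all genes by their interval, that after 24 h of light lost the call in the promoter window alone and in the upper 50%, and kept it with lists of equal length (23 members against 12.5%), a 75 bp overlap (31 against 18.5%) and the narrower window (22 against 8.49%). The count gained in dark against LD was above its share in the promoter window alone, in lists of equal length and in the upper 50%, and not with a 75 bp overlap (22 against 16.6%) or the narrower window (11 against 8.13%). No paired analysis was possible because each condition has 1 library, and for the same reason no library could be left out. Read depth, the caller's threshold and which lists were subsampled are unknown here, and most gained or lost peaks in NAC zones were weak.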

Other observations

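The miR164 genes and 17 known targets of NAC factors were read as partners, from a list chosen with earlier results known. Of these 20 genes, 13 to 17 had a peak in their zone in each list, with 22 to 30 peaks in all. MIR164a had 1 peak in each of the 3 h, LD control and spray control lists and none in the other 4 lists. MIR164b had 1 in every list except the 24 h list, and MIR164c in every list except the spray control. The MIR164b peak did not overlap between the dark and 30 min lists, the dark and LD control lists, or the LD and spray control lists. Among senescence targets, BFN1, a nuclease activated by ORE1, had 1 peak in all 7 lists, and NYE1, which removes magnesium from chlorophyll, had 1, 3, 1 and 2 in the dark-grown lists and 3, 1 and 1 in the LD control, spray control and heat shock lists. AOX1A, the alternative oxidase gene induced through NAC013 and NAC017, had 2, 4, 2, 3, 2, 3 and 2. The secondary wall targets XCP1, IRX3 and IRX1 had no peak in any list, and MYB83 had 2 in the LD control, 1 after 3 h of light and after heat shock, and none in the other 4.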
